A study of Homo sapiens with 6 samples.

Results

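The SR proteins and hnRNPs are RNA-binding proteins that choose which exons are kept in a messenger RNA. Their genes were followed with and without knockdown of METTL3 in A549, a long-established line of human lung adenocarcinoma cells, labelled as non-small cell lung cancer. They were chosen by symbol: the numbered SRSF genes, the HNRNP genes without their pseudogenes, and TRA2A, TRA2B, SRRM2, PTBP1, PTBP2, PTBP3, ESRP1, ESRP2, RBFOX2, MBNL1, MBNL2, QKI and CELF1. This rule took 49 of the 57781 rows of the count table, of which 15 are SR or SR-related genes, 27 are hnRNP or PTBP genes and 7 are regulators that depend on cell type. It left out 124 rows of HNRNP pseudogenes.

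RNA sequencing had been done on 3 libraries of vector-control cells, labelled wild type, and on 3 libraries of cells with a short hairpin RNA against METTL3, labelled METTL3 knockdown (shMETTL3). METTL3 is the catalytic subunit of the writer of N6-methyladenosine (m6A), a methyl mark on messenger RNA. The labels give both groups the same line and medium, and the promoter of the hairpin is not described in the sources used here. The table numbers the shMETTL3 columns sh1 to sh3, and the sources used here do not say whether these were different hairpins. The study's methods speak of independent repeats of its experiments in general, and the labels do not say whether these libraries came from separate cultures.

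SR proteins carry arginine-serine repeats and mostly promote the use of exons that hold their binding sites, whereas hnRNPs often repress exons, and the ratio of both kinds is known to shift splice site choice. Many of these genes limit their own level: when the protein is abundant, it steers its own transcript into a form with an early stop codon, which nonsense-mediated decay removes. HNRNPC, HNRNPA2B1, SRSF3 and SRSF10 have been linked to the reading of m6A in the literature.

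Library totals ran from 14931426 to 19108928 counts. METTL3 stood at 49.4, 50.6 and 49.5 CPM (counts brought to a common library total and scaled by the TMM method) in vector replicates 1, 2 and 3 and at 18.9, 19.9 and 19.3 CPM in shMETTL3 replicates 1, 2 and 3. Its log2 fold change was -1.36 with a standard error of 0.067 (adjusted p = 4.57e-16). Every adjusted p here comes from the quasi-likelihood test of edgeR, adjusted over all tested genes by Benjamini-Hochberg. The choice of scaling bears on small changes, since the scaling factors were 0.920 to 0.953 in the vector libraries and 1.05 to 1.07 in the shMETTL3 libraries. With library size as the only scaling, the median over all tested genes lay 0.17 higher on the log2 scale.

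Of the 49 genes, 45 had enough counts to be tested, and 32 of these were called at an adjusted p under 0.05, 14 higher and 18 lower in the shMETTL3 libraries. That is 71.1% of those tested, beside 66.6% of all 15125 tested genes, 33.7% called higher and 32.9% called lower, so the share called was near the background. Their changes were small. Of the 45 genes, 11 were called with an absolute log2 fold change of at least 0.5, or 24.4%, beside 39.1% of all tested genes, and 2 with at least 1. The median absolute log2 fold change was 0.29, beside 0.41 over all tested genes. These genes were more abundant, at a median log2 CPM of 7.21 beside 4.10, and genes of like level were not compared. For 34 of the 45 genes the groups lay apart without overlap, beside 69.4% of all tested genes. The median signed log2 fold change was 0.00064, beside 0.0022. Fewer cells that express a gene and less of its RNA per cell cannot be told apart in such bulk libraries.

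The calls of each class are given under both scalings, and the difference between the classes was not tested. Of the 15 SR and SR-related genes, 7 were higher and 1 lower, with a median log2 fold change of 0.16, and with library size alone 12 were higher and 0 lower, beside 44.6% higher and 23.2% lower of all tested genes under that scaling. Of the 24 tested hnRNP and PTBP genes, 6 were higher and 13 lower, with a median of -0.17, but with library size alone 9 were higher and 5 lower. Of the 6 tested regulators, 1 was higher and 4 were lower, with a median of -0.25, and with library size alone 2 were higher and 3 lower. Over all 45 genes, library size alone gave 23 higher and 8 lower calls against 14 and 18, and it moved the calls of all tested genes the same way, to 6750 higher and 3509 lower against 5090 and 4977. The same call was made under all 4 scalings for 14 genes that were higher, 7 of them SR and 6 hnRNP or PTBP genes, and for 8 that were lower, 5 of them hnRNP genes. The 10 genes called lower only while the libraries were scaled for composition were TRA2A, HNRNPA0, HNRNPA1, HNRNPAB, HNRNPDL, HNRNPF, HNRNPM, HNRNPUL2, PTBP1 and CELF1. No gene was called in opposite directions under any of the scalings.

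**Figure D1:**
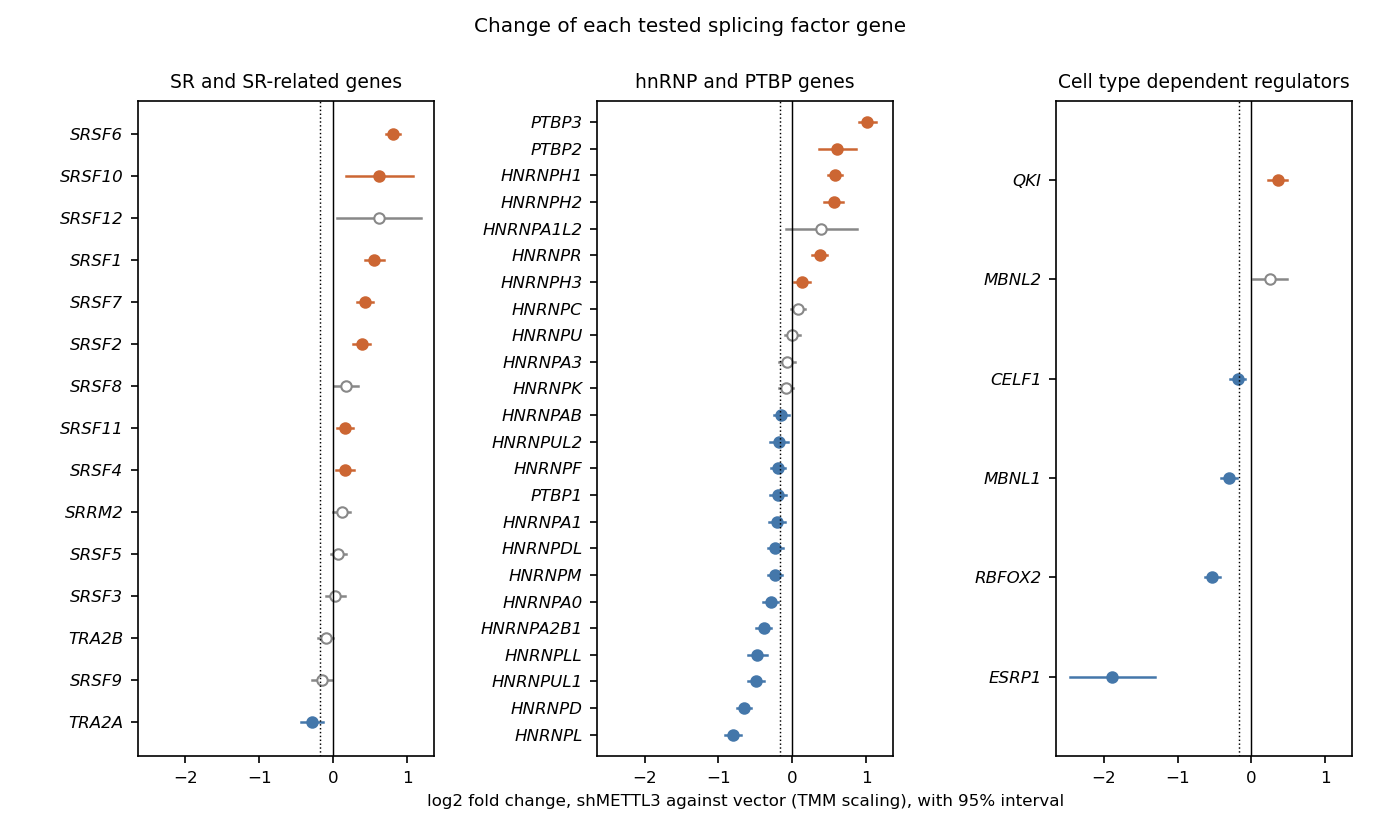
Log2 fold change of each of the 45 tested genes, shMETTL3 against vector under TMM scaling (x axis), with its 95% interval; filled points were called at an adjusted p under 0.05, orange higher and blue lower, and open points were not called. The SR genes lie mostly to the right of 0, 7 higher and 1 lower; of the hnRNP and PTBP genes 6 were higher and 13 lower, and the dotted line marks where 0 would lie with library size alone, under which 9 of them were higher and 5 lower.

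Levels were compared between genes as CPM per kilobase of the canonical transcript. In the vector libraries the most abundant were HNRNPA2B1 at 230.5 ± 10.8 (SD, n = 3), HNRNPK at 218 ± 7.37 and HNRNPC at 169 ± 4.85 CPM per kilobase. HNRNPA2B1 and HNRNPK lay within a summed SD of each other. In the shMETTL3 libraries the order of levels was HNRNPK at 206 ± 4.36, HNRNPH1 at 191 ± 7.59, HNRNPC at 178 ± 4.53 and HNRNPA2B1 at 176 ± 2.32 CPM per kilobase, so that the lower level of HNRNPA2B1 and the higher level of HNRNPH1 changed the order. HNRNPC and HNRNPA2B1 then lay within a summed SD of each other.

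The other genes spanned a wide range in the vector libraries. SRSF5 at 148, HNRNPUL1 at 133, HNRNPAB at 133, HNRNPF at 132, HNRNPH1 at 128, PTBP1 at 108 and HNRNPU at 95.3 CPM per kilobase followed the leading 3. Among these, the neighbours SRSF5 and HNRNPUL1, HNRNPUL1 and HNRNPAB, HNRNPAB and HNRNPF, and PTBP1 and HNRNPU lay within their summed SDs. Over the whole order of 46 genes with reads, 24 of the 45 neighbouring pairs lay within their summed SDs, so much of the order is not resolved. Between 20.9 and 80.9 CPM per kilobase lay SRSF2, HNRNPL, HNRNPD, HNRNPM, SRSF3, SRSF7, HNRNPDL, HNRNPA1, SRRM2, SRSF9, TRA2B, HNRNPH3, SRSF6, SRSF4, HNRNPA0, HNRNPR and SRSF11. HNRNPH2 at 19.8, TRA2A at 17.7, MBNL1 at 16.7, CELF1 at 15.4, HNRNPA3 at 15.2, RBFOX2 at 14.02, PTBP3 at 13.6, HNRNPUL2 at 11.1, HNRNPLL at 10.4 and SRSF1 at 8.04 CPM per kilobase came next. The lowest were SRSF8 at 4.82, QKI at 4.56, MBNL2 at 2.11, PTBP2 at 1.65, HNRNPA1L2 at 1.58, ESRP1 at 0.591, SRSF12 at 0.262, SRSF10 at 0.210 and ESRP2 at 0.0787 CPM per kilobase. HNRNPCL1, HNRNPCL2 and HNRNPCL4, copies related to HNRNPC, were listed at 0 in all 6 libraries. A count of 3 stands at 0.150 to 0.189 CPM at these depths. Low counts need care, since U2AF1 and YTHDC1, genes that most cells use, were also listed at 0 in all 6 libraries.

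Among the SR genes the largest rise of a well covered gene was that of SRSF6, a protein that binds exonic enhancers (chr20:42086533-42094686, plus strand, GRCh37, the build the files call hg19). SRSF6 stood at 156, 156 and 149.985 CPM in vector replicates 1, 2 and 3 and at 269, 270.3 and 271 CPM in shMETTL3 replicates 1, 2 and 3. Its lowest shMETTL3 library was far above its highest vector library, and the libraries within each group lay close together. The log2 fold change came to 0.81 (standard error 0.049 and adjusted p = 4.26e-14).

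The GENCODE annotation (release 44, mapped to GRCh37) gives SRSF6 an exon that no protein-coding transcript of the gene uses and that its decay transcript carries, at chr20:42087793-42088060 on the plus strand. It is shown because a gene-level count adds reads of the coding and the decay transcript together. Its 268 bases hold the stop codon of that transcript at base 150, and the exon is printed from its first base to that stop codon, which is in capitals.

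SRSF6 decay exon, chr20:42087793-42087944: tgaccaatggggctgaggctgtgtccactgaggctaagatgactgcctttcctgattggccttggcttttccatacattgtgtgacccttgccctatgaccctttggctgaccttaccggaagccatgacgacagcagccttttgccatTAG

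SRSF1, the founding SR protein and a known oncogene (chr17:56078280-56084707, minus strand), stood at 45.9, 45.2 and 37.9 CPM in the vector libraries and at 62.4, 65.5 and 61.9 CPM in the shMETTL3 libraries. The log2 fold change came to 0.56 (standard error 0.067 and adjusted p = 3.55e-08), and the groups did not overlap. An unnamed protein-coding gene on the same strand covers 32.7% of its exon bases.

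SRSF7, which also takes part in messenger RNA export, had 136, 126 and 123 CPM in vector and 176, 164 and 180.2 CPM in shMETTL3 replicates 1, 2 and 3, a log2 fold change of 0.43 (standard error 0.054, adjusted p = 8.23e-08). For SRSF2, whose protein recognises exonic enhancers, the log2 fold change came to 0.39 (standard error 0.059, adjusted p = 1.77e-06), and 27.7% of its exon bases lie opposite those of MFSD11 on the other strand. Both genes were higher in every shMETTL3 library than in any vector library.

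Smaller rises were found for SRSF11 and SRSF4. SRSF4 stood at 64.2, 65.2 and 74.3 CPM in the vector libraries and at 71.1, 76.3 and 79.6 CPM in the shMETTL3 libraries, so that the groups overlapped at a log2 fold change of 0.16 (adjusted p = 0.0294). SRSF11 was at 0.16 too (adjusted p = 0.0171), again with overlapping groups. SRSF4 lost its call with DESeq2 and without vector replicate 1 or 2 or shMETTL3 replicate 2 or 3, with log2 fold changes of 0.11 to 0.22 over the libraries left out. SRSF11 lost its call without vector replicate 2 or shMETTL3 replicate 1 or 2, with 0.12 to 0.20.

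SRSF10, a splicing repressor when it is dephosphorylated, rests on few counts, and whether the gene annotation used for counting took part in this was not tested. It had 32, 20 and 30 counts in vector replicates 1, 2 and 3 and 51, 47 and 39 counts in shMETTL3 replicates 1, 2 and 3. Every shMETTL3 library was above every vector library, with a log2 fold change of 0.62 (standard error 0.231, adjusted p = 0.0192). Its call was lost with DESeq2, without vector replicate 2 and without shMETTL3 replicate 1, with log2 fold changes of 0.45 to 0.72 when a library was left out. SRSF12, its close relative, had 18, 14 and 16 against 30, 30 and 20 counts and was not called, at 0.61 (adjusted p = 0.0626), but was called higher with library size alone and with at least 10 counts in every library.

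TRA2A, a splicing activator related to the fly transformer-2 protein, was the only SR or SR-related gene called lower under TMM scaling. It stood at 31.1, 33.3 and 30.4 CPM in the vector libraries and at 26.0, 28.2 and 22.99 CPM in the shMETTL3 libraries, a log2 fold change of -0.29 (adjusted p = 0.00166) that was not called with library size alone. Its paralogue TRA2B had 157, 154 and 151 against 148, 142 and 140.3 CPM and was not called, at -0.10 (adjusted p = 0.0746), but was called lower without vector replicate 3, at -0.12 (adjusted p = 0.0207).

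The remaining SR and SR-related genes were not called. SRSF3, which is linked to m6A through the nuclear reader YTHDC1, stood at 265, 285 and 247 CPM in the vector libraries and at 294, 238 and 281 CPM in the shMETTL3 libraries. These groups overlapped throughout, and the log2 fold change was 0.028 with a 95% interval of -0.098 to 0.15 (adjusted p = 0.717), although SRSF3 was called higher with library size alone. SRSF9 had 51.4, 59.0 and 55.6 against 45.2, 49.3 and 55.3 CPM, a log2 fold change of -0.15 (adjusted p = 0.058), and 43.6% of its exon bases lie opposite those of GATC. The log2 fold changes of SRSF8, SRRM2, a large scaffold protein of nuclear speckles, and SRSF5 were 0.17, 0.11 and 0.069, with adjusted p-values of 0.0588, 0.0783 and 0.247. SRSF9 was called lower without a filter, with the replicate block and without vector replicate 1 or shMETTL3 replicate 3, at -0.081 to -0.23 over the libraries left out. SRSF8 and SRRM2 were called higher with upper-quartile scaling, library size alone, at least 10 counts in every library, and without vector replicate 3 or shMETTL3 replicate 1, at 0.12 to 0.23 and 0.066 to 0.17 over the libraries left out. SRSF5 was called higher with library size alone and was at 0.015 without vector replicate 2.

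**Figure D2:**
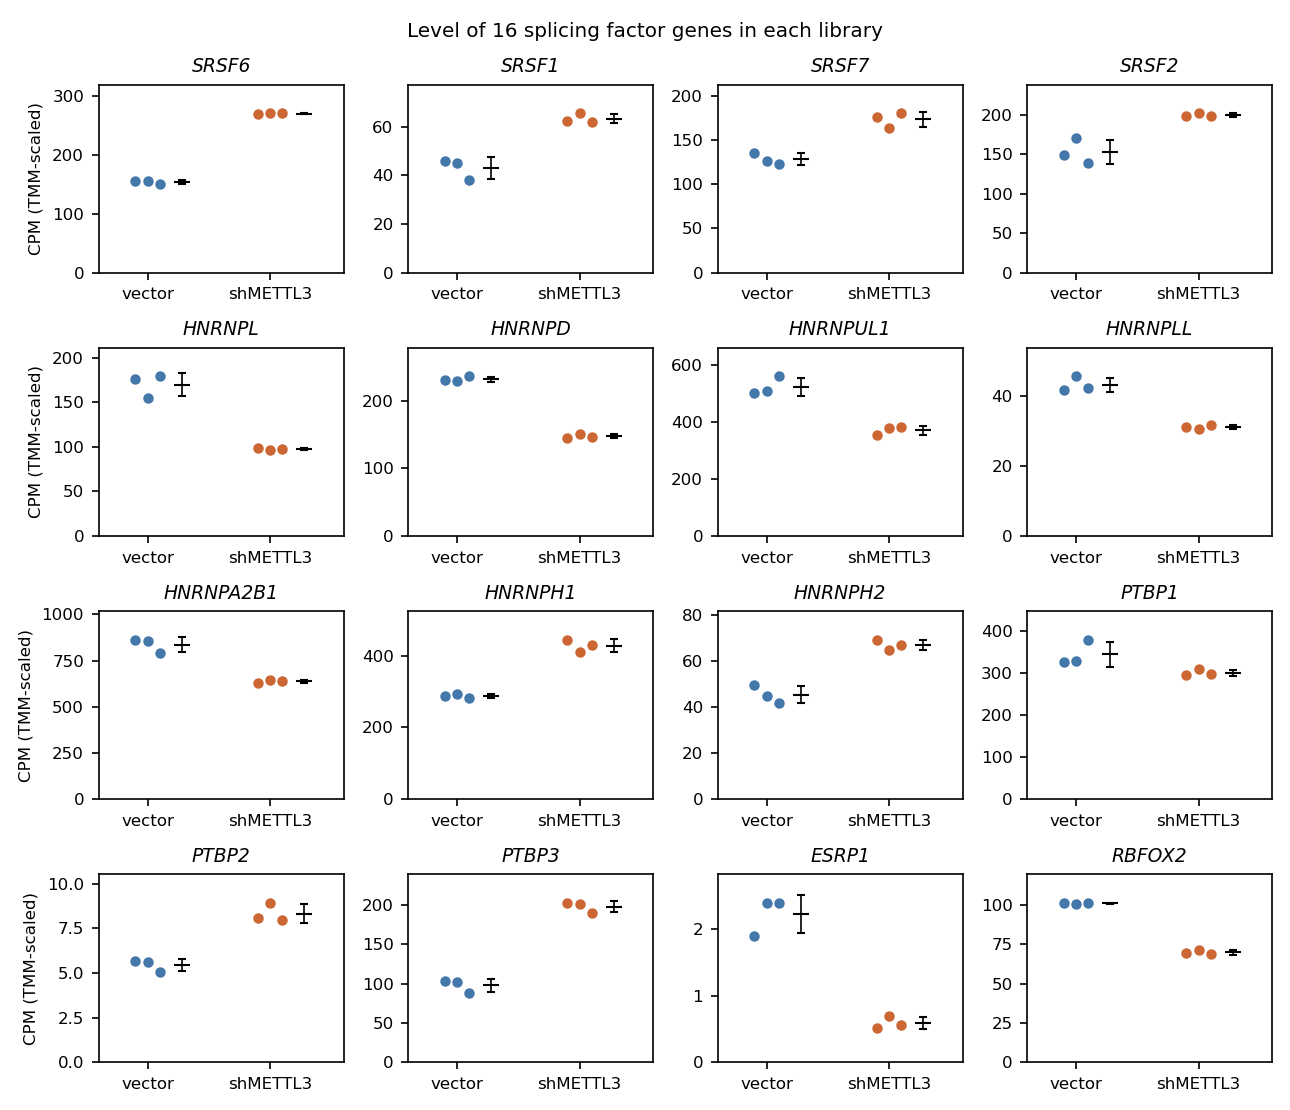
Level of 16 of the genes in each library as TMM-scaled CPM (y axes from 0, each with its own range), with the mean and SD of 3 libraries beside the points, vector in blue and shMETTL3 in orange. The 16 genes were picked for display. In each of their panels the 3 vector and the 3 shMETTL3 libraries do not overlap. Such separation was found for 34 of the 45 tested genes of the rule and for 69.4% of all tested genes. SRSF6 went from 156 at most to 269 at least, and HNRNPL from 155 at least to 98.2 at most. The lower level of PTBP1 was not called with library size alone.

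Among the hnRNPs the largest fall was that of HNRNPL, which binds CA-rich RNA (chr19:39327010-39342987, minus strand). HNRNPL stood at 176, 155 and 179 CPM in vector replicates 1, 2 and 3 and at 98.2, 96.7 and 97.0 CPM in shMETTL3 replicates 1, 2 and 3. All 3 shMETTL3 libraries were close to each other and below the lowest vector library. The log2 fold change came to -0.80 (standard error 0.056 and adjusted p = 9.51e-13), and it was -0.63 with library size alone. Counts of its 2 pseudogene rows came to 5.49% to 8.67% of its own, and with them added the log2 ratio of the mean CPM was -0.83 against -0.80 without.

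HNRNPLL, the paralogue of HNRNPL known for the splicing of CD45 in lymphocytes, was lower as well, at a log2 fold change of -0.47 (standard error 0.066, adjusted p = 4.05e-07). HNRNPL has an annotated exon that only a decay transcript carries, 70 bases long, at chr19:39332253-39332322 on the minus strand. HNRNPH1 has such an exon of 134 bases at chr5:179048844-179048977 on the minus strand. Both are shown, from their first base to the stop codon in capitals, because HNRNPL was lower and HNRNPH1 higher while both carry the same kind of exon.

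HNRNPL decay exon, chr19:39332264-39332322: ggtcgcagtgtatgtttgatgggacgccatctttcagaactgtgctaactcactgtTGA

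HNRNPH1 decay exon, chr5:179048952-179048977: cgttggtaacggaaagcgacctgTAA

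HNRNPD, also called AUF1, binds AU-rich elements and speeds up the decay of their transcripts (chr4:83273651-83295656, minus strand). It stood at 230.3, 229 and 236 CPM in the vector libraries and at 145, 151 and 146 CPM in the shMETTL3 libraries. HNRNPD changed by -0.65 on the log2 scale (standard error 0.049, adjusted p = 4.43e-12). The groups were far apart compared with their spread.

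HNRNPUL1, a relative of HNRNPU, had 502, 506 and 559 CPM in the vector libraries and 353, 378 and 382 CPM in the shMETTL3 libraries, a log2 fold change of -0.49 (standard error 0.053, adjusted p = 4.98e-09). HNRNPA2B1, named as a nuclear reader of m6A, stood at 863, 854 and 791 CPM in the vector libraries and at 629, 646 and 638 CPM in the shMETTL3 libraries. It was lower in every shMETTL3 library, with a log2 fold change of -0.39 (standard error 0.050, adjusted p = 1.09e-07), and the call held with library size alone.

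Of the 13 hnRNP and PTBP genes called lower, the other 8 had log2 fold changes between -0.30 and -0.15 and were not called with library size alone. HNRNPA1, a splicing repressor, stood at 205, 183 and 175 CPM in the vector libraries and at 168, 162 and 156 CPM in the shMETTL3 libraries, with a log2 fold change of -0.21 (adjusted p = 0.00198). It has 75 pseudogene rows, 20 of them above 0, whose counts came to 11.7% to 20.2% of its own, and with them added the log2 ratio of the mean CPM was -0.14 against -0.21 without. How the counting shared reads between HNRNPA1 and these copies is not given in the sources used here.

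HNRNPAB had 238, 235 and 234 against 197, 218 and 221 CPM, at -0.15 (adjusted p = 0.0124), and was 0.023 with library size alone. HNRNPUL2 had 55.9, 62.6 and 54.7 against 48.2, 51.1 and 53.7 CPM, at -0.18 (adjusted p = 0.0144), and a readthrough gene on its strand covers 44.3% of its exon bases. HNRNPA0, HNRNPM, HNRNPDL and HNRNPF had log2 fold changes of -0.30, -0.23, -0.23 and -0.19. For all 8, PTBP1 included, the groups did not overlap. HNRNPUL2 lost its call without vector replicate 2 or shMETTL3 replicate 1, with log2 fold changes of -0.22 to -0.13, and HNRNPAB without shMETTL3 replicate 1, with -0.18 to -0.10 over the libraries left out.

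Several abundant hnRNPs were not called. HNRNPC, which binds uridine tracts that m6A can expose, stood at 535, 521 and 551 CPM in the vector libraries and at 556, 581 and 557 CPM in the shMETTL3 libraries. Its log2 fold change was 0.076 with a 95% interval of -0.019 to 0.17 (adjusted p = 0.172). HNRNPK, a poly(C)-binding protein, had 643, 642 and 605 against 602, 579.7 and 600.4 CPM, at -0.084 (adjusted p = 0.133). The groups did not overlap for either gene, and HNRNPC was called higher with library size alone. HNRNPK was called lower without vector replicate 3, at -0.12 (adjusted p = 0.0155), and HNRNPC was at 0.050 without vector replicate 2.

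HNRNPU, a nuclear matrix protein also called SAF-A, had a log2 fold change of 0.00064 with a 95% interval of -0.096 to 0.097 (adjusted p = 0.992), and it too was called higher with library size alone. HNRNPA3 was at -0.078 (adjusted p = 0.213), at -0.052 without vector replicate 1 and, then called lower, at -0.13 without vector replicate 3 (adjusted p = 0.0199), and 53.6% of its exon bases lie opposite those of NFE2L2. HNRNPA1L2, a copy related to HNRNPA1 that lies wholly within the exons of a long noncoding RNA, had 0.39 (standard error 0.246, adjusted p = 0.164). Single libraries decided this value, which was 0.062 without shMETTL3 replicate 2 and, then called higher, 0.62 without shMETTL3 replicate 3 (adjusted p = 0.0198).

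HNRNPH1 and HNRNPH2, close paralogues that bind runs of G, were higher. HNRNPH1 (chr5:179041179-179061785, minus strand) stood at 287, 294 and 281 CPM in the vector libraries and at 444, 410.2 and 429 CPM in the shMETTL3 libraries, a log2 fold change of 0.57 (standard error 0.050, adjusted p = 7.58e-11). HNRNPH2 stood at 49.5, 45.0 and 41.9 CPM in the vector libraries and at 69.3, 64.7 and 67.0 CPM in the shMETTL3 libraries, a log2 fold change of 0.56 (standard error 0.063, adjusted p = 1.31e-08). Both paralogues were higher by a like amount, as their ratio shows further on. HNRNPH2 lies on the X chromosome (chrX:100663210-100669121, plus strand), where the median log2 fold change over 453 tested genes was 0.74, beside -0.0049 over the numbered chromosomes. The part of this in the value of HNRNPH2 was not tested.

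HNRNPR, which binds RNA and is close to SYNCRIP, had a log2 fold change of 0.37 (standard error 0.051, adjusted p = 4.14e-07). HNRNPH3 was higher by little, at 0.13 (adjusted p = 0.0347), and its call was lost with DESeq2, without a filter, and when any of vector replicates 1 and 3 and shMETTL3 replicates 1 and 3 was left out, with log2 fold changes of 0.089 to 0.16 over the libraries left out. HNRNPF, a relative of HNRNPH1, was called lower, as given above, though not with library size alone.

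The polypyrimidine tract-binding proteins moved apart. PTBP1, or hnRNP I, is the form of most cells and represses many neuronal exons (chr19:797075-812327, plus strand). It stood at 326, 328 and 380.0 CPM in vector replicates 1, 2 and 3 and at 296, 309.6 and 298 CPM in shMETTL3 replicates 1, 2 and 3, a log2 fold change of -0.20 (standard error 0.056, adjusted p = 0.00312), which was not called with library size alone. Without vector replicate 3, the highest library, it was -0.13 and still called (adjusted p = 0.0112). PTBP3, or ROD1 (chr9:114979996-115095944, minus strand), stood at 103, 102 and 87.96 CPM in the vector libraries and at 202, 201 and 189.9 CPM in the shMETTL3 libraries. With a log2 fold change of 1.02 (standard error 0.058, adjusted p = 1.21e-14) PTBP3 had the largest rise of all 45 genes.

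PTBP2, the neuronal form (chr1:97187221-97289294, plus strand), stood at 5.68, 5.63 and 5.09 CPM in the vector libraries and at 8.08, 8.93 and 7.999 CPM in the shMETTL3 libraries. Its log2 fold change came to 0.61 (standard error 0.128 and adjusted p = 0.000147), and its level stayed low, at 2.51 CPM per kilobase against 93.9 for PTBP1 in the shMETTL3 libraries. PTBP1 is known to cause skipping of a 34-base exon of PTBP2 and of the matching exon of its own transcript, which sends both to nonsense-mediated decay. Both exons are annotated as coding exons that decay transcripts skip, at chr1:97271975-97272008 in PTBP2 and at chr19:807869-807902 in PTBP1, both on the plus strand. They are shown with the 100 bases before them because PTBP1 was lower and PTBP2 higher. Capitals mark TTCTCT and CTCTCT, pyrimidine motifs that PTBP1 is known to bind. These and TTCTTT were searched on the transcript strand, and overlapping hits were counted.

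PTBP2, 100 bases before the exon, chr1:97271875-97271974: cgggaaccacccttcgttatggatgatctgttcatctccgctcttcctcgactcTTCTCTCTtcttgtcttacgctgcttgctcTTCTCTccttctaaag

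PTBP2, 34-base exon: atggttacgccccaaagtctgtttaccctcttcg

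PTBP1, 100 bases before the exon, chr19:807769-807868: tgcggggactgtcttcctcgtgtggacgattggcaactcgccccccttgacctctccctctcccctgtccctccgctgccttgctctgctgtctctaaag

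PTBP1, 34-base exon: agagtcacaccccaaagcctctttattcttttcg

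The exons of PTBP1 and PTBP2 hold the same base at 25 of 34 positions. The 100 bases before the PTBP2 exon held 2 TTCTCT and 1 CTCTCT, and those before the PTBP1 exon held 0 of either, and neither held TTCTTT. Of the same windows before 166627 inner exons of canonical transcripts, 12.8% held TTCTCT, 8.98% held CTCTCT and 17.9% held TTCTTT. Pyrimidines made up 73 of the 100 bases for PTBP2 and 69 for PTBP1. The median of these windows was 55, and 1.54% of them reached 73 and 4.07% reached 69. A match of letters is not a site of binding, and exon use was not measured in a count per gene.

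Of the 6 tested regulators that depend on cell type, 4 were lower under TMM scaling and 3 with library size alone. ESRP1, an epithelial splicing regulator, had 34, 40 and 39 counts in vector replicates 1, 2 and 3 and 10, 14 and 9 counts in shMETTL3 replicates 1, 2 and 3. Its log2 fold change of -1.88 (standard error 0.295, adjusted p = 2.64e-06) was the largest in size of all 45 genes, on few counts and at 27.1% of the vector level. It is not tested when every library must have at least 10 counts. ESRP2, its paralogue, had 8, 3 and 3 counts in vector and 1, 5 and 1 counts in shMETTL3 libraries and was not tested.

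Epithelial markers moved with ESRP1. All 5 of KRT8, KRT18, KRT19, EPCAM and CDH1 were lower, with log2 fold changes from -2.73 for EPCAM to -0.58 for CDH1, and their summed level was 8981 to 9591 CPM in the vector and 3927 to 4323 CPM in the shMETTL3 libraries, so both groups of this carcinoma line held these markers. EPCAM stood at 112, 112 and 103 CPM in the vector libraries and at 15.7, 17.4 and 15.998 CPM in the shMETTL3 libraries. The part of this shift in the change of ESRP1 was not tested.

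RBFOX2, which binds GCATG and is known for splicing in mesenchymal cells, stood at 101, 101 and 101 CPM in the vector libraries and at 69.2, 71.5 and 68.8 CPM in the shMETTL3 libraries. RBFOX2 changed by -0.53 on the log2 scale (standard error 0.052, adjusted p = 8.45e-10), and the vector libraries hardly differed from each other. MBNL1, a regulator best known from myotonic dystrophy, had 93.3, 94.6 and 88.4 against 73.0, 77.5 and 73.3 CPM, a log2 fold change of -0.30 (adjusted p = 1.82e-05). Its paralogue MBNL2 had 10.5, 8.20 and 10.8 against 12.6, 10.6 and 11.9 CPM and was not called, at 0.25 (adjusted p = 0.0598). MBNL2 was called higher in 7 alternatives, which were upper-quartile scaling, library size alone, at least 10 counts in every library, the replicate block, and leaving out vector replicate 1, vector replicate 3 or shMETTL3 replicate 2. It was at 0.13 without vector replicate 2 and at 0.32 without shMETTL3 replicate 2. CELF1, which binds GU-rich RNA, was lower at -0.19 (adjusted p = 0.00355), a call that was lost with library size alone and without shMETTL3 replicate 1, with -0.23 to -0.14 over the libraries left out.

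QKI, a regulator of splicing and circular RNA in mesenchymal cells, was the only regulator called higher under TMM scaling, at 0.35 (standard error 0.062, adjusted p = 1.66e-05). Markers of mesenchymal and other cell types were checked beside it. Of the fibroblast markers COL1A1 was called higher at 0.90, LUM was not called under TMM scaling but was called higher with library size alone, and the summed level of all 4 was 6.35 to 9.38 CPM in the vector and 13.5 to 14.1 CPM in the shMETTL3 libraries, with COL1A2 and DCN at 0 counts in the vector libraries and at most 3 and 7 counts in the shMETTL3 libraries. The part of this in the change of QKI was not tested.

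Neuronal markers stood beside the rise of PTBP2. SYT1, SNAP25 and RBFOX3 were called higher, 3 of 4 markers, and their summed level was 27.4 to 28.9 CPM in the vector and 71.4 to 74.4 CPM in the shMETTL3 libraries, whereas ELAVL4 was at 0 in all 6. Of the leukocyte markers, PTPRC and CD3E had at most 1 count in any library, and CD14 was called higher at 3.55. Of the endothelial markers VWF was at 0 in all libraries, PECAM1 had no row, and CDH5 had 0, 0 and 2 counts in vector against 30, 28 and 30 counts in shMETTL3 libraries. Their part in the values of the splicing factor genes was not tested.

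The share of a library's counts that fell on these genes is relative to the library total, so it follows the scaling by library size alone. All 49 genes together took 0.810%, 0.796% and 0.770% of all counts in vector replicates 1, 2 and 3 and 0.871%, 0.865% and 0.873% in the shMETTL3 libraries. The SR and SR-related genes took 0.175%, 0.174% and 0.168% in the same vector replicates, a mean of 0.172% ± 0.0038 (SD, n = 3), and 0.225%, 0.221% and 0.225% in the shMETTL3 libraries, a mean of 0.224% ± 0.0021 (SD, n = 3). The hnRNP and PTBP genes took 0.585% ± 0.016 and 0.612% ± 0.0026 (SD, n = 3). These shares did not overlap between the groups, and the exact two-sided permutation test gave p = 0.1 for each, the smallest p that 3 libraries against 3 allow.

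The share of the SR genes moved more than that of the hnRNP genes. Their ratio does not depend on the scaling. Its log2, of the summed SR counts to the summed hnRNP counts, was -1.78, -1.76 and -1.76 in vector replicates 1, 2 and 3 and -1.44, -1.46 and -1.45 in the shMETTL3 libraries. It differed by 0.31 between the groups, against SDs of 0.011 and 0.0085 (exact two-sided permutation test, p = 0.1). The regulators took 0.0351% ± 0.00084 and 0.0341% ± 0.00066 (SD, n = 3), which overlapped (exact two-sided permutation test, p = 0.3).

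**Figure D3:**
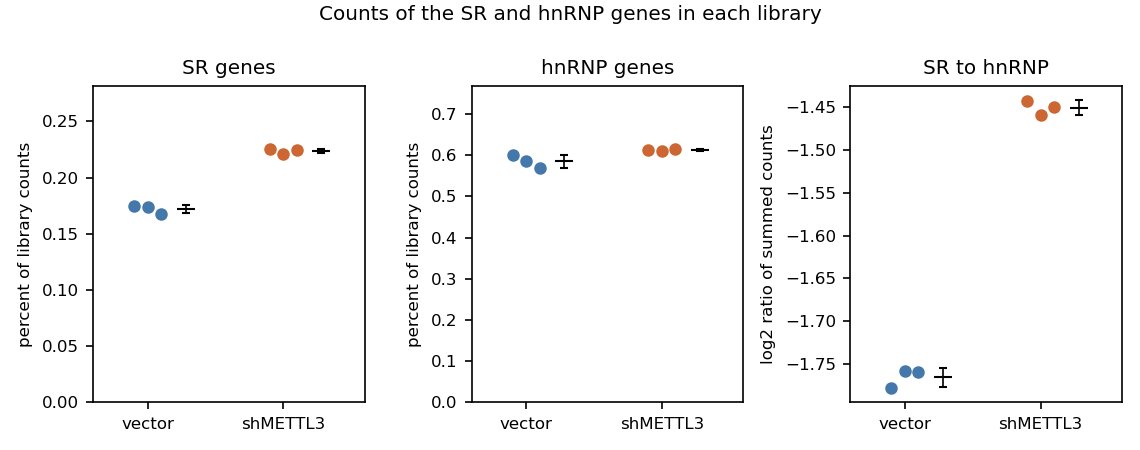
Percent of each library's counts on the 15 SR and SR-related genes (left) and on the 27 hnRNP and PTBP genes (middle), and the log2 ratio of both sums (right, axis not from 0), with the mean and SD of 3 libraries beside the points. The 3 shMETTL3 libraries (orange) lie above the 3 vector libraries (blue) in each panel, the SR share at 0.224% against 0.172% and the log2 ratio at -1.45 against -1.77. On the scale of the shares the median log2 fold change over all tested genes was also above 0, at 0.176.

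Ratios of related genes within a library were compared for 12 pairs fixed with the rule for the genes, as log2 of the counts with 0.5 added. The pairs were chosen with earlier results of these data known. For 9 of the 12 pairs the groups did not overlap. Of all tested genes taken singly 69.4% did not overlap, and the share over other pairs of genes was not computed. In these 9 pairs the exact two-sided permutation test gave p = 0.1, or 0.133 after Benjamini-Hochberg adjustment over the 12 pairs. None could pass a threshold of 0.05 with 3 libraries in a group.

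PTBP3 against PTBP1 had a mean log2 ratio of -1.82 ± 0.253 (SD, n = 3) in the vector and -0.61 ± 0.053 (SD, n = 3) in the shMETTL3 libraries, a difference of 1.21. PTBP2 against PTBP1 had -5.97 ± 0.212 and -5.17 ± 0.053, a difference of 0.80. The ratio moved towards PTBP3 and PTBP2 in every shMETTL3 library, and this does not depend on the scaling between libraries.

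Among the SR genes, SRSF6 gained on SRSF4 by 0.65 and SRSF7 on SRSF3 by 0.41 on the log2 scale, while SRSF9 lost 0.71 against SRSF1, with a difference of -0.71. MBNL2 gained 0.56 on MBNL1, HNRNPUL2 gained 0.32 on HNRNPUL1 and HNRNPA1 gained 0.18 on HNRNPA2B1. HNRNPD against HNRNPAB had a difference of -0.50. In these 7 pairs every shMETTL3 library lay on the same side of all vector libraries.

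The remaining 3 pairs overlapped. HNRNPH2 against HNRNPH1 had a mean log2 ratio of -2.66 ± 0.11 in the vector and -2.67 ± 0.0088 in the shMETTL3 libraries (SD, n = 3), a difference of -0.012 (exact two-sided permutation test, p = 1). TRA2A against TRA2B differed by -0.20 (exact permutation p = 0.2). ESRP2 against ESRP1 differed by 0.73 (exact permutation p = 0.3), on 1 to 8 counts of ESRP2 in a library. This difference was 1.22 without vector replicate 1, 0.47 without vector replicate 2 and 0.28 without shMETTL3 replicate 2.

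**Figure D4:**
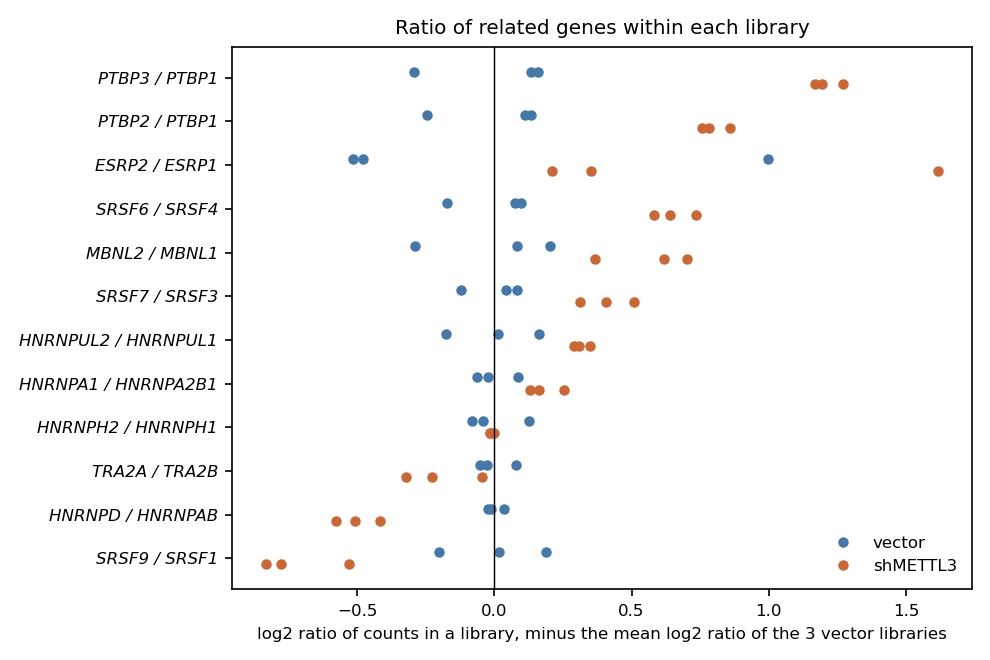
Log2 ratio of the counts of 2 related genes in each library, less the mean log2 ratio of the 3 vector libraries (x axis), for 12 pairs (rows), vector in blue and shMETTL3 in orange. PTBP3 against PTBP1 shows the largest difference, 1.21, the points of HNRNPH2 against HNRNPH1, ESRP2 against ESRP1 and TRA2A against TRA2B overlap, and SRSF9 against SRSF1 lies farthest to the left, at -0.71.

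The genes share features that the rule did not use. Of the 45 tested genes 35, or 77.8%, have an annotated transcript that ends in nonsense-mediated decay, among them all 15 SR and SR-related genes and 16 of the 24 tested hnRNP and PTBP genes, beside 47.2% of the 12758 tested protein-coding genes with annotation. A transcript with a retained intron is annotated for 77.8% of them, beside 60.3%. These genes were also abundant, since the median log2 CPM was 7.21 for these genes and 4.10 for all tested genes. Among the genes called higher 11 of 14 have a decay transcript, among those called lower 12 of 18, and among those not called 12 of 13.

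Exons that only decay transcripts carry, 22 in all, were found in 14 of the 49 genes, 8 of them SR or SR-related, 4 hnRNP or PTBP genes and 2 regulators, and 18 of the 22 hold the stop codon themselves. The other kind, coding exons that decay transcripts skip, was found 28 times in 14 genes, 11 of them hnRNP or PTBP genes, 3 regulators and 0 SR genes. The exons printed above for SRSF6, HNRNPL and HNRNPH1 are of the first kind, and those of PTBP1 and PTBP2 of the second.

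The canonical transcripts of these genes had a median GC content of 41.8%, beside 48.2% over the tested protein-coding genes. Genes called higher had a median of 39.7% and genes called lower 46.0%. The sequence GGACT, which fits the motif that the m6A writer prefers, was found at a median of 0.58 per kilobase of transcript in these genes and 0.92 in all. It was found at 0.55 per kilobase in the genes called higher and 0.87 in those called lower. The motif was counted on the transcript strand, and methylation itself was not measured here.

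The enzymes that phosphorylate and import SR proteins were counted beside them. Of 10 tested genes 5 were higher and 2 lower, with a median log2 fold change of 0.17, beside 0.0022 over all tested genes. The share called, 70%, was near the 66.6% of all tested genes. With library size alone 6 were higher and 2 lower, with a median of 0.34, beside 0.176 over all tested genes under that scaling. CLK4, a nuclear kinase of SR proteins, stood at 15.9, 14.9 and 14.1 CPM in the vector libraries and at 24.9, 25.7 and 22.5 CPM in the shMETTL3 libraries (log2 fold change 0.71, adjusted p = 2.84e-08). Its relatives CLK2 and CLK3 were lower, at -0.34 (adjusted p = 6.05e-05) and -0.32 (adjusted p = 9.45e-05), so the CLK family did not move in 1 direction. PRPF4B, another kinase of splicing factors, was higher at 0.24 (adjusted p = 0.000781).

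Of 36 tested core spliceosome genes of 38 listed, 7 were higher and 17 lower, with a median log2 fold change of -0.12. The share called, 66.7%, was near the 66.6% of all tested genes, of which 33.7% were higher and 32.9% lower. With library size alone 14 were higher and 9 lower, with a median of 0.058. Over all tested genes that scaling gave a median of 0.176, with 44.6% higher and 23.2% lower, so the median of this list lay below that of all genes under both scalings. SNRPA, which binds the RNA of a spliceosomal particle, stood at 68.9, 70.7 and 80.5 CPM in the vector libraries and at 30.8, 37.3 and 31.9 CPM in the shMETTL3 libraries (log2 fold change -1.13, adjusted p = 1.29e-13). The Sm proteins SNRPD2 and SNRPF were lower at -0.70 (adjusted p = 1.78e-10) and -0.59 (adjusted p = 2.62e-08). SF1, the branch point binding protein, was higher at 0.65 (adjusted p = 6.13e-11), at 205, 186 and 217 against 303, 328 and 321 CPM.

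Of 51 tested genes of 58 other splicing regulators and hnRNP relatives, 19 were higher and 13 lower, with a median log2 fold change of 0.096. In this list 62.7% were called, beside 66.6% of all tested genes. With library size alone 29 were higher and 6 lower, with a median of 0.27, beside 0.176 over all tested genes under that scaling. The 4 with the largest changes were all of low level. MBNL3, a paralogue of MBNL1 on the X chromosome, had 25, 29 and 26 counts in vector and 0, 3 and 4 counts in shMETTL3 libraries. PCBP3, a poly(C)-binding protein, had 1, 2 and 3 counts against 26, 20 and 16. The neuronal regulators NOVA2 and SRRM3 were higher at 1.88 (adjusted p = 5.82e-06) and 1.84 (adjusted p = 2.9e-09). NOVA1, the paralogue of NOVA2, was called lower at -0.50 (adjusted p = 0.000266). Its mean in the vector libraries was 11.6 CPM, against 0.528 CPM for NOVA2. The neuronal regulators of this list thus did not all move in 1 direction.

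Of 17 tested genes of nonsense-mediated decay, which acts on the decay transcripts described above, 9 were higher and 2 lower, with a median log2 fold change of 0.13. In this list 64.7% were called, beside 66.6% of all tested genes. With library size alone 15 were higher and 1 lower, with a median of 0.30, beside 0.176 over all tested genes under that scaling. UPF3B, on the X chromosome, stood at 8.91, 8.44 and 8.83 CPM in the vector libraries and at 24.7, 23.2 and 21.5 CPM in the shMETTL3 libraries (log2 fold change 1.41, adjusted p = 2.35e-13). MAGOH, of the exon junction complex, and SMG8 were higher at 0.42 (adjusted p = 4.18e-05) and 0.34 (adjusted p = 4.65e-05). UPF1, the central helicase, was not called at 0.10 (adjusted p = 0.12) but was called higher with library size alone, at 0.28.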

How the data were processed

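RNA sequencing of 3 vector and 3 shMETTL3 libraries of A549 cells gave the counts the authors deposited, whole reads per gene without normalization. The submitters' processing notes name cutadapt 3.0, HISAT2 2.2.1, SAMtools 1.13, HTSeq 0.13.5 and hg19; the paper's methods name other versions of HISAT2 and htseq. The gene annotation and strand setting are not given in the sources used here. Groups and replicate numbers came from the sample titles. The paper speaks of independent repeats in general, but neither it nor the labels say that these libraries came from separate cultures, so p-values measure the spread between these libraries, which may be technical.

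The counts were filtered by filterByExpr, scaled by TMM and fitted on the group alone by glmQLFit and glmQLFTest of edgeR 4.0.16, under R 4.3.3, with Benjamini-Hochberg adjustment over the 15125 genes tested of 57781 rows. Genes were called at an adjusted p under 0.05. Alternatives were RLE, upper-quartile and library-size scaling, other filters and thresholds, DESeq2 1.42.0, limma-voom (limma 3.58.1), a replicate block and each library left out. Ratios and shares were compared by exact permutation tests in scipy 1.17.1. Gene models came from GENCODE release 44 mapped to GRCh37, the build called hg19, and sequences from the GRCh37 genome. The standard errors and intervals of the log2 fold changes came from the edgeR fit. They reflect the estimated spread between these libraries as well as counting error.

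The genes, pairs and lists were chosen with earlier results of these data known. Every gene of the rule is named. Values per library were given for genes called with an absolute log2 fold change of at least 0.5, the 3 with the highest level per kilobase, the genes of the 12 pairs, and HNRNPC, HNRNPA2B1, SRSF3 and SRSF10. From each other list, up to 4 called genes with the largest change were named. Other genes of these lists were counted but are not reported by name here. UPF1, NOVA1, other genes of the marker lists and 2 genes listed at 0 were named after their values were seen.

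The chi-square per degree of freedom of 2 libraries was 2.79 to 7.56 within a group and 80.4 to 99.9 across groups, so none was counted as a repeat of another.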

Additional observations from a re-analysis of the deposited data

How the results depend on the processing

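The alternatives were 14 refits, other thresholds, other totals for the shares and a pseudocount of 5 for the ratios. Calls of 29 or more of the 32 genes were kept by RLE and upper-quartile scaling, both other filters, DESeq2 and limma-voom. Library size alone kept 22, lost 10 that were lower and added 9 that were higher, since it moved all genes up. With library size alone 5 genes that were below 0 turned above it, none of them then called: HNRNPA3 to 0.095, HNRNPAB to 0.023, HNRNPK to 0.090, SRSF9 to 0.024 and TRA2B to 0.072. HNRNPU, near 0, was -0.0029 with RLE scaling, -0.0029 with DESeq2 and -0.012 without a filter, and it was -0.024 without vector replicate 2, -0.018 without vector replicate 3, -0.013 without shMETTL3 replicate 2 and -0.0014 without shMETTL3 replicate 3, up to 0.026 without vector replicate 1. SRSF3 was -0.028 without vector replicate 3, -0.034 without shMETTL3 replicate 1 and -0.00094 without shMETTL3 replicate 3, up to 0.11 without shMETTL3 replicate 2.

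A minimum absolute log2 fold change of 1 left 2 of the 32 genes, 0 SR genes, 1 hnRNP or PTBP gene and 1 regulator, and 2668 of all genes. An adjusted p under 0.01 left 5 SR genes. The median log2 fold change was 0.17 with library size alone, -0.052 without a filter, when more genes are tested, and 0.032 with at least 10 counts in every library. Leaving out each library in turn gave 28 to 37 called genes in all, 5 to 11 SR genes, 16 to 20 hnRNP or PTBP genes and 4 to 6 regulators, and medians of -0.034 to 0.020. The fewest SR genes, 5, were found without vector replicate 2. The ratio of HNRNPH2 to HNRNPH1 then differed by -0.053 to 0.051, above 0 without vector replicate 1. The difference in share was 0.057 percentage points for SR genes and -0.0023 for regulators when mitochondrially encoded genes were left out of the total. Apart from library size alone and the filters, the cause of these shifts was not tested.

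With the replicate block, all 32 calls were kept and MBNL2 and SRSF9 were added, for 34 in all. Deviations of same-numbered libraries correlated at 0.052, -0.0066 and 0.033. Those numbered 1 and those numbered 3 correlated best with each other, and those numbered 2 did not. Correlations this weak cannot decide whether the numbers pair the libraries, and the main fit used no pairing. The values of SRSF10, ESRP1 and ESRP2 rest on few counts, and the cause of the low counts was not tested.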
